A study of Rattus norvegicus with 458 samples.

Results

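The miR-378 family was followed through 23 tissues of the rat. Its members were every name in the table of miRNA counts of which a part, between semicolons, was miR-378, with or without a letter and an arm, and precursor entries were left out. This gave 68 of 7534 names, of which 11 were single names, 15 were composites of known names and 42 were composites that also held a predicted miRNA. A composite name was given by the authors to a sequence that aligned to more than 1 precursor. Small RNA had been sequenced from naive Sprague Dawley rats of 12 to 13 weeks, 5 male and 5 female, with no treatment. For 19 tissues there was a library of each of the 10 rats, for testis, ovary and uterus a library of each of 5 rats, and for the dorsal root ganglion (DRG) 10 libraries that repeated 2 pools, 1 per sex, of RNA supplied separately, which were summed to 2 values. The heart, the biceps and soleus muscles, the kidney cortex and the liver formed the mitochondria-rich tissues (50 libraries), and the other 18 tissues the rest (157 libraries or pools).

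MicroRNAs are short RNAs that bind to messenger RNAs, mainly through bases 2 to 8 at their 5′ end (the seed), and lower the output of those messages. In the rat RefSeq annotation (GRCr8) the miR-378a hairpin lies inside Ppargc1b on chromosome 18, the gene of PGC-1β, a coactivator of genes for mitochondria and fatty acid oxidation. The hairpin gives a 3p arm and a 5p arm, and miR-378a has been studied in mice for its part in energy balance and lipid metabolism.

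The sequences below show which letters set the names apart, since most members share the seed of miR-378a-3p and differ in the last bases. The first pair are the mature forms in RefSeq, the 2 members that its table holds, with the seed in capitals.
miR-378a-3p, RefSeq: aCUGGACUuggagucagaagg
miR-378a-5p, RefSeq: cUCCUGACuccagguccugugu
The others are the most counted sequence of each name with at least 1000 counts, written as DNA as in the deposited isomiR table, again with bases 2 to 8 in capitals.
miR-378a-3p: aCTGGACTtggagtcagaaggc
miR-378a-3p;miR-378b: aCTGGACTtggagtcagaaggt
miR-378a-5p: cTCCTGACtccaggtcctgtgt
predicted miRNA with miR-378c: aCTGGACTtggagtcagaagaa
miR-378d: aCTGGACTtggagtcagaaggtt
miR-378c: aCTGGACTtggagtcaggagcc
predicted miRNA with miR-378d: aCTGGACTtggagtcagaaaa
miR-378b: aGTGGACTtggagtcagaagg
The 3p names other than miR-378b carried the capital run of miR-378a-3p in their most counted sequence. That of miR-378c held only 18.3% of its counts and differed from miR-378a-3p at base 18 as well as in the last bases. The leading sequence of the composite miR-378a-3p;miR-378b held 93.9% of the counts of that name and was the RefSeq form of miR-378a-3p with 1 added T.

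The family held 14976216 counts over all libraries, and miR-378a-3p alone held 14535154 of them (97.05%). The composite miR-378a-3p;miR-378b followed with 1.88% and miR-378a-5p, the opposite arm, with 0.654%. Only 8 of the 68 names reached 1000 counts, while 48 had under 100 and 23 under 10. The composite miR-378d;miR-6128 had 57 counts in 26 libraries, mostly in the biceps, where the median library had 2.5 counts and the highest 12, and it was below what a comparison could use. The precursor entries of the family, 10 in number, held 21 counts in all. The hairpin miR-3557, which RefSeq lists over the same stretch of the chromosome, gave 15 counts for its 5p arm and 5 for its 3p arm.

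Library totals ran from 376401 counts in a testis library to 17725805, with a median of 4816409. In 10 libraries the whole profile correlated better with another tissue than with the labelled one, by at least 0.0668 in Pearson's r on log2 CPM (counts scaled to a library total of 1000000): 4 labelled duodenum, 3 labelled hippocampus, and 1 each labelled adrenal, ovary and uterus. None of them was labelled as a mitochondria-rich tissue. They were kept under their labels, and values without them are given where they matter. The tissue markers heart miR-208a-3p, liver miR-122-5p and muscle miR-133a-3p were highest in the heart, the liver and the biceps. No marker looked at was highest in the kidney cortex. Of those taken for the kidney, miR-10a-5p and miR-30a-5p were highest in the medulla and miR-204-5p in the cerebellum. For miR-30a-5p the cortex was next, with 72393 CPM against 72466. Elsewhere miR-203a-3p, taken for the non-glandular stomach, was highest in the ileum, and miR-202-5p, taken for adrenal and ovary, in the testis. The RNA integrity number averaged 7.78 ± 0.476 (SD, n = 50) in the mitochondria-rich tissues and 7.92 ± 0.826 (n = 155) in the rest, and its part in the results was not tested.

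miR-378a-3p was highest in both skeletal muscles and liver, next in heart and kidney, and lowest in blood. In the biceps, a fast skeletal muscle, the 10 libraries ran from 67762 to 87692 CPM with a median of 80044, so that the miRNA made up 7.84% of all counts on average. In the soleus, a slow oxidative muscle, they ran from 39982 to 57191 CPM with a median of 48476. No soleus library reached the lowest biceps library. In the liver the range was 30472 to 46677 CPM with a median of 38846, and in the heart 16205 to 20760 CPM with a median of 18631. The kidney cortex, the part of the kidney rich in proximal tubules, ran from 11878 to 22187 CPM with a median of 17227. Liver and heart did not overlap, whereas heart and kidney cortex covered much the same range.

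**Figure D1:**
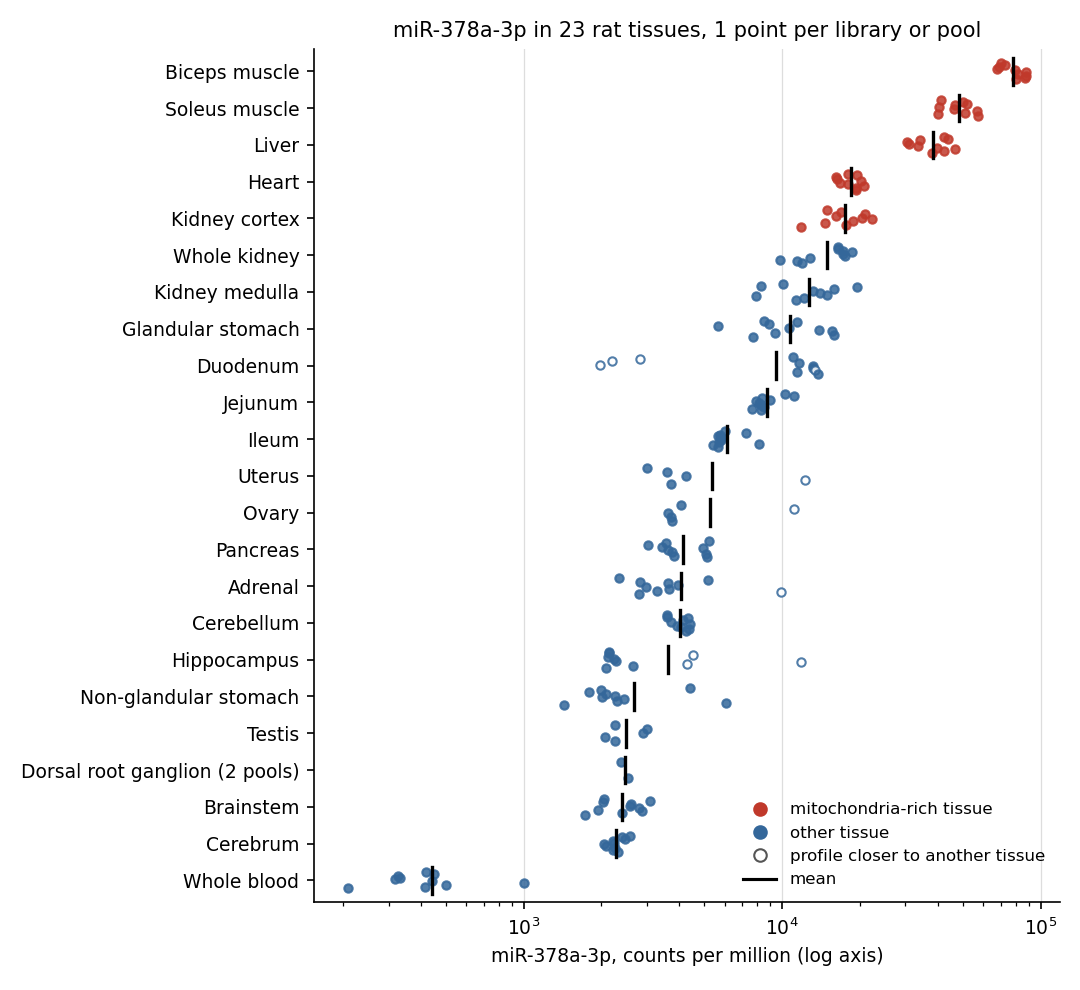
Level of miR-378a-3p in CPM on a log axis for each of 23 tissues, with 1 point per rat library or DRG pool and a black bar at the mean. The 10 biceps libraries lie between 67762 and 87692 CPM and the 10 whole blood libraries between 208.92 and 1005.5 CPM. Open points are the 10 libraries whose profile was closer to another tissue.

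From the kidney cortex down to the jejunum, neighbouring tissues did not differ beyond their spread. The whole kidney averaged 14923 ± 3098 CPM (SD, n = 10), the kidney medulla 12722 ± 3567 and the glandular stomach 10751 ± 3421. The small intestine stepped down along its length, from 12350 ± 1118 CPM in the 6 duodenum libraries that matched their label (9445 ± 4994 in all 10) to 8752 ± 1085 in the jejunum and 6106 ± 866 in the ileum. Jejunum and ileum differed by more than the larger of their standard deviations. Uterus, ovary and adrenal averaged 5360, 5256 and 4053 CPM under their labels, and 3638 ± 515 (n = 4), 3789 ± 194 (n = 4) and 3399 ± 833 (n = 9) without the libraries closer to another tissue. Pancreas held 4151 ± 834 CPM.

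The tissues of the nervous system were low, and the cerebellum was above the others once the 3 hippocampus libraries closer to another tissue were set aside. It held 4027 ± 314 CPM, the brainstem 2407 ± 452 and the cerebrum 2284 ± 165 (n = 10 each), and the hippocampus 2233 ± 192 in the 7 libraries that matched their label (3631 ± 3037 in all 10). The 2 DRG pools gave 2372.8 and 2543.2 CPM. Testis with 2490 ± 420 CPM (n = 5) and non-glandular stomach with 2675 ± 1425 CPM (n = 10) lay at the same level. Whole blood was lowest with 442 ± 215 CPM, and its highest library, at 1005.5 CPM, was below the lowest of every other tissue. From biceps to blood the tissue means spanned 177-fold. In order of the means, the neighbours that differed by more than the larger standard deviation on the log2 scale were biceps and soleus, soleus and liver, liver and heart, jejunum and ileum, and cerebrum and blood, and the other neighbours did not.

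CPM depends on what else fills a library. In whole blood the composite miR-3107-5p;miR-486-5p reached 852125 CPM on average, and in the non-glandular stomach miR-143-3p reached 840799 CPM. Under upper quartile scaling, as used in the fit below, whole blood stood at place 17 of 23 and non-glandular stomach at 12 instead of 18, while biceps stayed at the top, followed by liver and then soleus.

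In CPM, every tissue mean of the mitochondria-rich set lay above every tissue mean of the rest. The means of the 5 ran from 17436 to 78437 CPM, with an average of 40129, and the means of the 18 others from 442 to 14923 CPM, with an average of 5663, a ratio of 7.09. Single libraries overlapped, since 22 of the 157 values of the rest lay above the lowest of the 50, which was a kidney cortex library. Under upper quartile scaling the tissue means were not separate. Kidney cortex stood at place 7, below whole kidney at 5 and glandular stomach at 6. In edgeR's quasi-likelihood test with upper quartile scaling, with p values adjusted by the Benjamini-Hochberg method over 1641 names, miR-378a-3p was higher in the mitochondria-rich tissues by 3.09 on the log2 scale (SE 0.139, adjusted p = 1.32e-52). The composite miR-378a-3p;miR-378b was higher by 3.73 (SE 0.170) and miR-378a-5p by 2.92 (SE 0.148). These errors and the p value rest on the spread of libraries within tissues, with no pairing by rat, and not on the spread between tissues.

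Of the 68 names, 21 had enough counts to be tested. Of these, 20 were higher in the mitochondria-rich tissues, none was lower and 1, miR-378f;miR-378j with 25 counts, passed in neither direction, with a standard error of 4880 on the log2 scale. Over all tested names 25.5% were higher and 11.8% lower. Under DESeq2, 3 of the 20 were no longer called, which were miR-378h, miR-378d;miR-378e and a predicted composite with miR-378b. The predicted composite with miR-378c;miR-378e was no longer called without rat 3, 8 or 9 (0.98, 0.60 and 0.53 on the log2 scale), nor was miR-378d;miR-378e without rat 3 (1.44). The log2 differences of the 20 ran from 1.57 for miR-378g to 3.73. The names are not independent, since several leading sequences printed above differ from miR-378a-3p only in their last bases. Names known from other species were given by the authors only to reads left over from the rat names. How far these calls repeat that of miR-378a-3p was not tested. A name with few counts had to be high in some tissue to be tested at all, and the 47 names that were not tested had at most 199 counts each. Under DESeq2 the split of all called names turned from 418 higher and 194 lower to 221 higher and 531 lower, with the median of all names at -0.54 on the log2 scale against 0.00419 under edgeR, and miR-378a-3p was then higher by 2.64. TMM scaling gave 303 higher and 254 lower with a median of -0.22 and scaling by the library total 325 and 234 with -0.19, and miR-378a-3p was higher by 2.87 and 2.98.

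Each of the 10 rats gave 19 of the tissues and its own reproductive organs, so the difference could be taken within each rat, without the DRG pools, which carry no rat number. For miR-378a-3p the mean of log2(CPM + 1) over the 5 tissues exceeded that over the other tissues in 10 of 10 rats, by 2.74 to 3.17 and by 3.00 ± 0.14 on average (SD, n = 10, exact two-sided sign-flip permutation test, p = 0.001953, the smallest that 10 rats allow). The other 7 names with at least 1000 counts were also higher in 10 of 10 rats, with mean differences from 1.82 for miR-378b to 3.67 for the composite miR-378a-3p;miR-378b. Since several of them differ from miR-378a-3p only in their last bases, they are not independent of it. In an edgeR fit with the rat as a block, which also left out DRG and tested 1265 names, the difference of miR-378a-3p was 2.96. It therefore differs from the main fit in more than the pairing. Among the libraries run on flow cell C2BUMACXX the difference was 3.17, and among those on D2C4RACXX it was 3.05.

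Set against the mean of the 22 other tissues, miR-378a-3p was higher in 9 tissues and lower in 10. The largest log2 differences were 3.62 in biceps (SE 0.168), where 18.3% of all names were called higher, 2.91 in liver (SE 0.172, 30.8%) and 2.81 in soleus (SE 0.174, 19.3%). Heart (1.84, with 28.9% of all names called higher), whole kidney (1.61, 23.8%), glandular stomach (1.58, 19.2%), kidney cortex (1.47, 21.3%), kidney medulla (1.39, 27.3%) and jejunum (1.15, 27.4%) followed. Thus 4 tissues outside the mitochondria-rich set were also called higher, and whole kidney and glandular stomach stood above kidney cortex on this scale. It was lowest in brainstem (-3.60, with 30.1% of all names called lower), testis (-3.45, 16.8%), cerebrum (-3.40, 27.7%) and DRG (-2.85, 3.78%). Smaller decreases were called in cerebellum (-1.97, 19.2%), whole blood (-1.36, 16.6%), adrenal (-1.13, 11.6%), hippocampus (-1.07, 11.8%), ovary (-0.91, 5.36%) and pancreas (-0.69, 13.3%). Duodenum, ileum, non-glandular stomach and uterus did not pass the threshold. miR-378a-5p and the composite miR-378a-3p;miR-378b were each called higher in the same 9 tissues and lower in 8, without ovary and pancreas.

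miR-378a-5p followed its partner arm at a far lower level. In the soleus its 10 libraries ran from 402.04 to 652.01 CPM with a median of 475.88, and in the biceps from 312.01 to 495.82 CPM with a median of 404.01. Unlike miR-378a-3p, this arm was higher in the soleus than in the biceps in 9 of 10 rats, although the libraries overlapped and the edgeR fit made no call (0.19 on the log2 scale, SE 0.346, adjusted p = 0.956). Liver held 194 ± 33.6 CPM (n = 10), heart 144 ± 21.0 and kidney cortex 118 ± 38.9, the rest at most 81.4, and blood 4.00 ± 1.65. Over the 23 tissues the log2 levels of the arms correlated with Pearson's r = 0.97, a description over tissue means that share libraries.

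**Figure D2:**
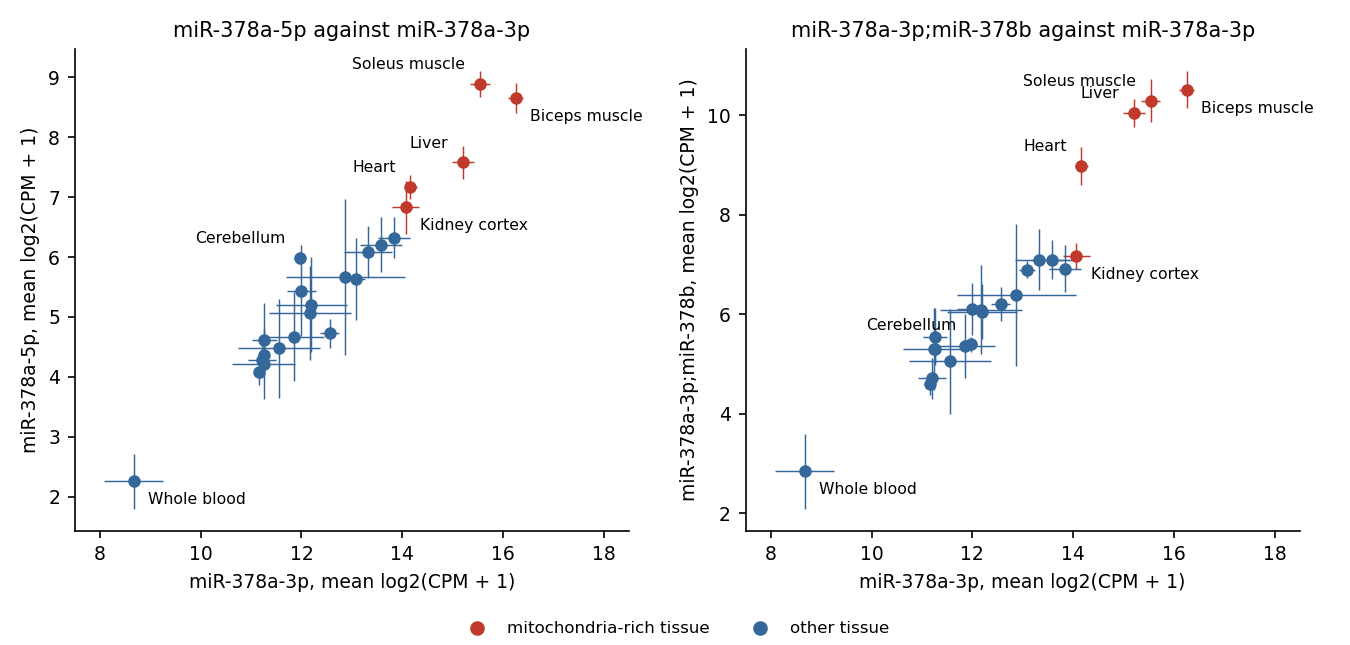
Mean log2(CPM + 1) of miR-378a-5p (left) and of the composite miR-378a-3p;miR-378b (right) against that of miR-378a-3p, with 1 point per tissue and bars of 1 SD over libraries. Cerebellum lies above the other tissues of its level for the 5p arm, and heart, liver and both muscles lie above the kidney for the composite.

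The ratio of the arms varied between tissues more than the levels alone would show. Per library, miR-378a-3p had a median of 65.1 times the counts of miR-378a-5p in the cerebellum, with all 10 libraries between 53.2 and 71.8. In the soleus the median ratio was 99.2 (86.8 to 142), in the biceps 197 (141 to 273), in the liver 204.6 (142 to 283) and in the ileum 244 (178 to 294). Cerebellum and ileum thus lay far apart with no overlap, and soleus and biceps barely touched. Between the mitochondria-rich tissues and the rest the log2 ratio differed by 0.13 ± 0.17 per rat (SD, n = 10), higher in 7 of 10 rats (exact sign-flip permutation test, adjusted p = 0.082 over 7 ratios). The arm ratio therefore separated single tissues, and no difference between the tissue sets was called.

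The composite miR-378a-3p;miR-378b, the form with an added T, did not keep a fixed share of miR-378a-3p. Its level was highest in the biceps, with libraries from 718.21 to 1817.4 CPM and a median of 1566 (from 1419 CPM without the lane described below, in which the lowest library had a run), then in the soleus with a median of 1340, the liver with 1110 and the heart with 550. As a percentage of miR-378a-3p it stood at 2.80 ± 0.162 in liver, 2.79 ± 0.440 in heart and 2.67 ± 0.475 in soleus, and at 1.91 ± 0.335 in biceps (SD, n = 10 each). The kidney cortex was unlike the others of its set, with 0.845 ± 0.141, close to the whole kidney with 0.833 ± 0.154. Per rat, the log2 ratio to miR-378a-3p was higher in the mitochondria-rich tissues by 0.70 ± 0.12 in 10 of 10 rats (exact sign-flip permutation test, adjusted p = 0.0137). None of the other ratios passed at 0.05 here, but several did under other settings. With flow cell D1GBMACXX only, the ratios of miR-378b (-1.73), miR-378c (-1.67), miR-378d (-0.44) and the predicted composite with miR-378d (-0.96) and the arm ratio (0.18) were called, and without the lane described below those of miR-378b (-0.42) and the predicted composite with miR-378c (0.23).

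Among the rarer names the order of tissues changed. miR-378d, whose main sequence ends in 2 added T, was highest in the liver with 70.215 to 115.62 CPM and a median of 96.4. In the biceps its median was 53.2 CPM and in the soleus 52.4, and both muscles had a library far above the others, at 254.88 and 148.07 CPM. Those libraries had a run in the lane described below, and without that lane the biceps held 51.4 ± 6.89 CPM and the soleus 47.8 ± 8.98 against 93.8 ± 13.2 in the liver. The predicted composite with miR-378c was instead a muscle form, with 165 ± 29.8 CPM in the soleus, 156 ± 34.1 in the biceps and 74.6 ± 15.9 in the heart, and only 22.2 ± 14.1 in the liver. miR-378b, whose most counted sequence (21.8% of its counts) differs in the second base, was also highest in soleus (median 10.4 CPM) and biceps (9.76). Its next sequence, with 20.2%, kept the seed of miR-378a-3p. For miR-378c, only 1 heart library and 2 liver libraries reached 100 counts. Its leading sequence has G for A at base 18. Among miR-378a-3p counts that change had a median of 0.033% in heart libraries but 1.85% in the highest. In liver these values were 0.027% and 1.58%. The cause was not tested.

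Pairs of related tissues were compared in the same edgeR fit. The heart was below the biceps in miR-378a-3p by 1.70 on the log2 scale (SE 0.326, adjusted p = 4.06e-06) and below the soleus by 0.92 (SE 0.320, adjusted p = 0.0178), and its CPM was lower in 10 of 10 rats in both cases. In these comparisons 9.69% and 10.2% of all names were called lower. In the composite miR-378a-3p;miR-378b the heart was below the soleus by a log2 difference of -0.85, which was not called (adjusted p = 0.062), while it was called with DRG left out, at -0.996 with no block and at -0.99 with the rat as a block. The soleus was below the biceps in 10 of 10 rats, with a median ratio of 0.637 in CPM, yet the fit gave -0.77 (SE 0.319, adjusted p = 0.209) and made no call (1.22% of all names were called lower). Without the 10 libraries closer to another tissue, all of them from other tissues, the difference was -0.75 with an SE of 0.185, and it was called. The kidney cortex was above the medulla in CPM in 10 of 10 rats, with a median ratio of 1.46, and the fit gave 0.08 (SE 0.317, adjusted p = 1), in a comparison in which 1.22% of all names were called higher. The difference in CPM was thus not seen under upper quartile scaling, and which scale is closer to the amount per cell was not tested. In bulk tissue, fewer cells of a type and less RNA per cell cannot be told apart.

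Female and male rats were compared within 19 tissues, with 15 family names that had enough counts. Of 285 tests 4 were called, against 1.49% of all tests in these tissues, and all 4 lay in the hippocampus. There 7.22% of all names were called lower in females, and miR-378a-3p was lower in females by 1.99 on the log2 scale (SE 0.426, adjusted p = 0.000221). The hippocampus of the males held 2 of the libraries closer to another tissue, at 4515.8 and 11868 CPM of miR-378a-3p, and that of the females 1, at 4299.5 CPM, while the 7 others lay between 2086.6 and 2639.1 CPM. Without these libraries the difference was 0.12, and without rat 6 alone, which gave the highest of them, it was -1.14 and none of the 4 calls was made. In the kidney medulla the CPM of the 5 females, 7926.9 to 12121 with a median of 10087, lay below that of the 5 males, 13208 to 19460 with a median of 14941, but the fit gave -0.24 (SE 0.411, adjusted p = 1). In the liver the females were higher in CPM, 38120 to 46677 with a median of 42418 against 30472 to 39571 with 33590, and the fit gave 0.18 (SE 0.411, adjusted p = 1). Of the 5 livers of each sex, 4 female and 1 male had re-extracted RNA, and its part in this difference was not tested.

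The isomiR table showed that the length of miR-378a-3p depended on the tissue. Its 1171 listed sequences add up to the counts of the name in every library. The 22-base form printed above took 32.3% of all counts and the 21-base RefSeq form 28.3%. The next forms are shown for their 3′ ends, since the tissues differ in them.
20 bases: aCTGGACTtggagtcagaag
22 bases, other last base: aCTGGACTtggagtcagaagga
23 bases, first kind: aCTGGACTtggagtcagaaggct
23 bases, second kind: aCTGGACTtggagtcagaaggca
They took 6.75%, 6.17%, 6.23% and 4.80% of the counts. All of them share the seed.

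**Figure D3:**
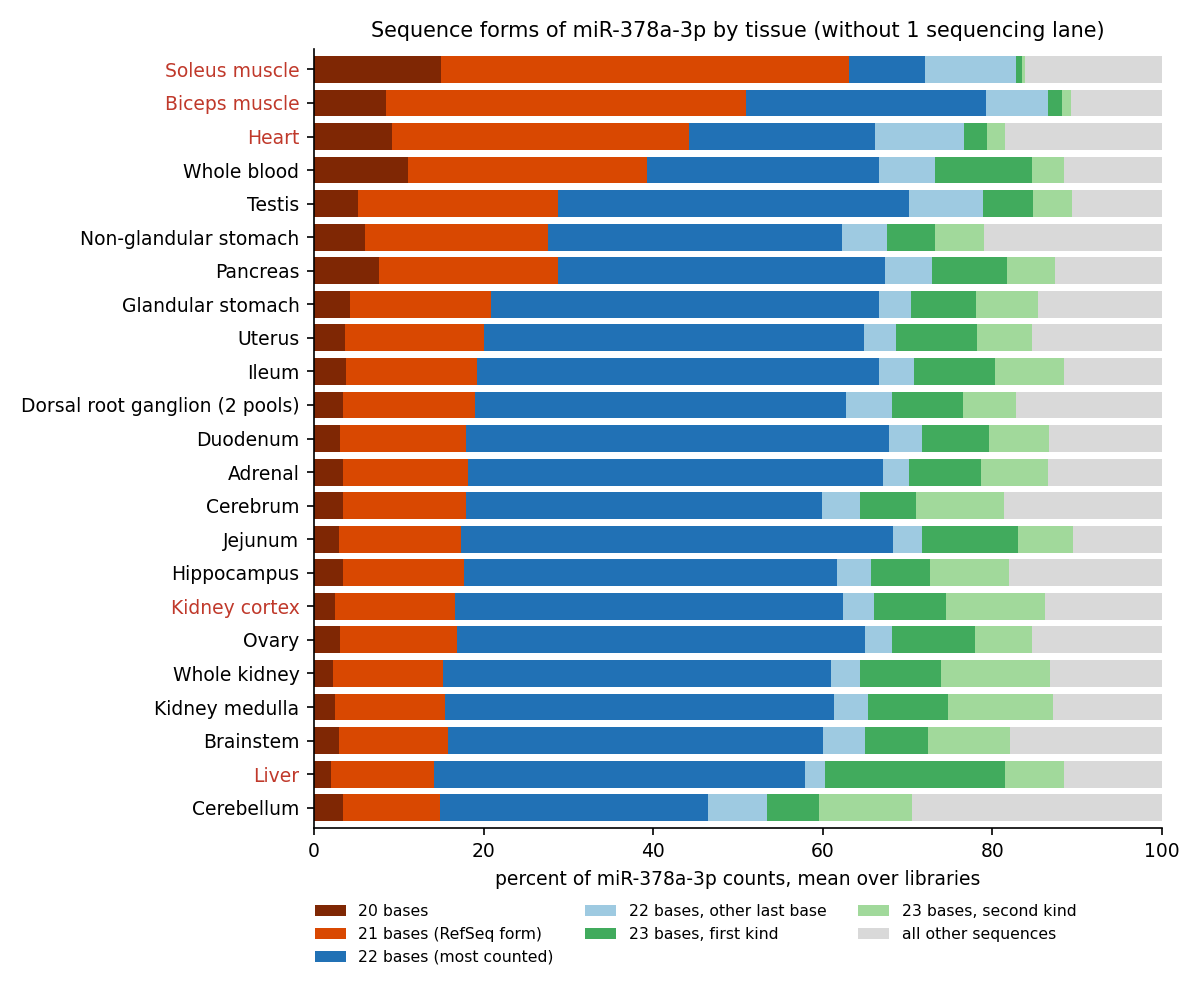
Mean share of miR-378a-3p counts taken by its 6 leading sequences in each tissue, without 1 sequencing lane, with the mitochondria-rich tissues in red. The 21-base RefSeq form takes 48.1% in soleus and 42.6% in biceps against 12.1% in liver and 14.1% in kidney cortex.

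Striated muscle held short forms. The RefSeq form took 48.1 ± 1.69% in soleus, 42.6 ± 2.08% in biceps and 34.95 ± 1.52% in heart (SD, n = 10 each, without the lane described below). In liver it took 12.1 ± 0.567% and in kidney cortex 14.1 ± 1.55%, and the whole blood, with 28.2 ± 1.92%, was the nearest to muscle. The 22-base form was lower in striated muscle, with 8.97 ± 0.810% in soleus, 21.99 ± 1.78% in heart and 28.3 ± 2.34% in biceps. Liver had 43.8 ± 2.34% and kidney cortex 45.8 ± 2.02%. This was not particular to striated muscle, since whole blood had 27.3 ± 2.22% and cerebellum 31.6 ± 1.48%, close to biceps. The first 23-base kind was a liver form, at 21.2 ± 1.62% there against 8.52 ± 1.25% in kidney cortex and 0.632 ± 0.128% in soleus. The soleus libraries for the RefSeq form, from 45.7 to 50.3%, did not overlap those of liver, from 11.1 to 13.0%. The mitochondria-rich tissues were therefore not alike in these shares. Within that set, soleus and liver stood at opposite ends for the RefSeq form, and soleus and kidney cortex for the 22-base form.

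Taken as sets, the mitochondria-rich tissues had a share of the 22-base form of 29.2% per rat against 41.5% in the rest, lower by 12.4 ± 1.72 percentage points in 10 of 10 rats (exact sign-flip permutation test, adjusted p = 0.00879 over 9 shares). Within the set only striated muscle was below the mean of the rest, with 8.60% in soleus, 21.05% in heart and 26.7% in biceps. Liver (43.8%) and kidney cortex (45.8%) lay above it. The share of sequences with another 3′ end was 58.4% against 44.9%, higher by 13.6 ± 1.10 points in 10 of 10 rats (adjusted p = 0.00879 in the same permutation test). Kidney cortex, at 44.3%, was below the rest here, while liver (50.7%), biceps (60.5%), heart (61.3%) and soleus (75.4%) were above it. Whole blood, a tissue of the rest, held 62.6%, above biceps and heart. Another 5′ end was found in 9.18% against 8.63%, a difference of 0.55 ± 4.40 points with no call. For miR-378a-5p and the composite none of the 6 shares passed at 0.05, with adjusted p values in the permutation tests from 0.0615 to 0.785.

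The 5′ ends were marked by 1 sequencing lane. In all 14 runs of lane 8 of flow cell C2BUMACXX, which held 14 libraries of 14 tissues, between 49.6 and 59.8% of the miR-378a-3p counts (median 53.8%) had 1 to 3 bases before the first base. In the 429 other runs the highest share was 1.01% and the median 0.192%. For miR-378a-5p, 7 runs of the lane could be judged, with 78.2 to 88.1%, against at most 1.31% in 167 others. The lane was found in these data and is not named in the labels as different. Without it, another 5′ end of miR-378a-3p was found in 6.71% in the mitochondria-rich tissues and 6.06% in the rest, a difference of 0.65 ± 0.135 points in 10 of 10 rats (exact sign-flip permutation test, adjusted p = 0.00586), and the differences in the 22-base form and the 3′ end were -13.1 and 13.1 points. In the 5′ share heart (9.34%) and soleus (9.06%) were above the rest, and kidney cortex (5.89%), biceps (5.75%) and liver (3.53%) below it. Of the 6 shares of the composite and miR-378a-5p, 3 then passed, the most counted sequence and the other 5′ ends of the composite (0.91 and -0.51 points) and the other 5′ ends of miR-378a-5p (0.80 points).

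**Figure D4:**
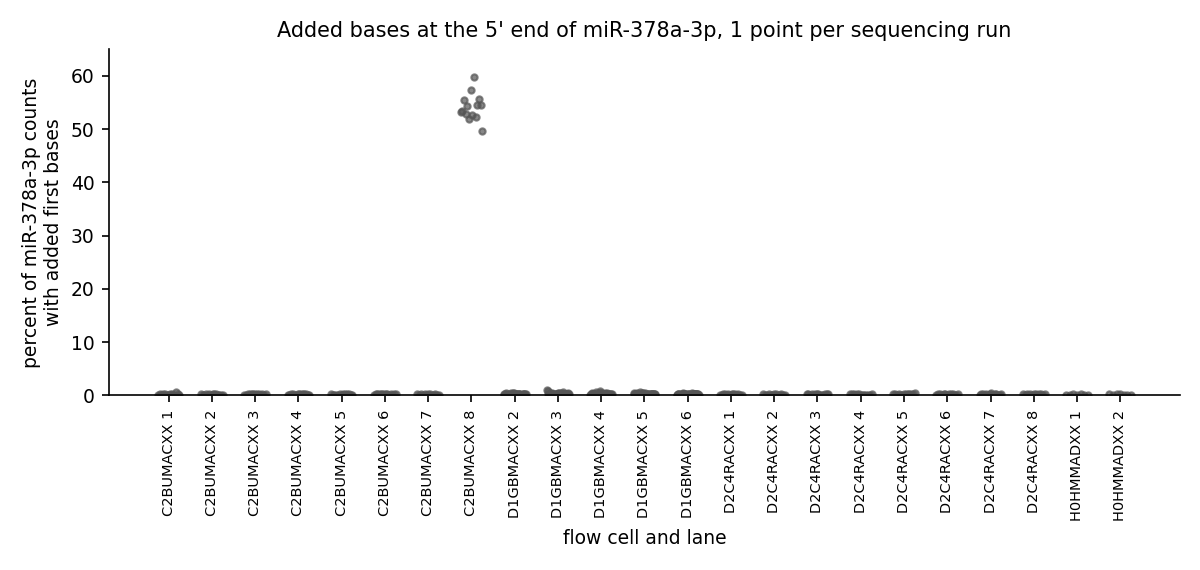
Share of miR-378a-3p counts with bases added before its first base, in percent, with 1 point per sequencing run, by flow cell and lane. All 14 runs of 1 lane lie between 49.6 and 59.8%, and the 429 others at or below 1.01%.

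A base change was common at position 16 of miR-378a-3p, counted from 1 at the 5′ end. Only sequences with a single change at bases 1 to 20 were searched, so the more frequent 22-base form with another last base is not among them. Of these changes A16G was the most frequent, in 262983 counts, 1.81% of the name, and G20A was next, in 0.369%. The most counted sequence with it is shown with base 16 in capitals, since it is otherwise the 22-base form.
A16G form: actggacttggagtcGgaaggc
This sequence made up 69.9% of the counts with the change.

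The share with A16G differed between tissues and was chosen for description after its values were seen, so no test is given. It was highest in the cerebellum, with 10 libraries between 15.8 and 18.6% and a mean of 17 ± 0.914%, and the highest library of another tissue, from the non-glandular stomach, had 12.5%. The non-glandular stomach held 8.95 ± 2.62%, the hippocampus libraries that matched their label 7.26 ± 0.574% (n = 7), the DRG pools 5.97 and 6.35%, the brainstem 6.14 ± 1.28% and the cerebrum 5.09 ± 0.750%. Outside the nervous system, the uterus and ovary libraries that matched their label held 5.79 ± 1.51% and 4.91 ± 0.373% (n = 4 each). The lowest means were those of biceps with 0.468 ± 0.189%, whole blood with 0.581 ± 0.273%, jejunum with 0.647 ± 0.108% and soleus with 0.693 ± 0.176%, and liver held 1.11 ± 0.166%. Kidney cortex with 2.92 ± 0.385% and heart with 1.82 ± 0.357% lay between them. These shares include the lane described above, where sequences with added first bases were not searched for the change. Brainstem rat 6, which had a run there, held 3.268% with the lane and 6.102% without it. In CPM the changed form was also highest in the cerebellum, with 686 ± 79.3 CPM. Kidney cortex followed with 503 ± 90.8 CPM, liver with 425 ± 103 and whole kidney with 410 ± 121. Biceps held 364 ± 138 CPM of it, although all miR-378a-3p was 78437 CPM there against 4027 in the cerebellum. The change A12G was far rarer, with 0.781% in the cerebellum at most.

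**Figure D5:**
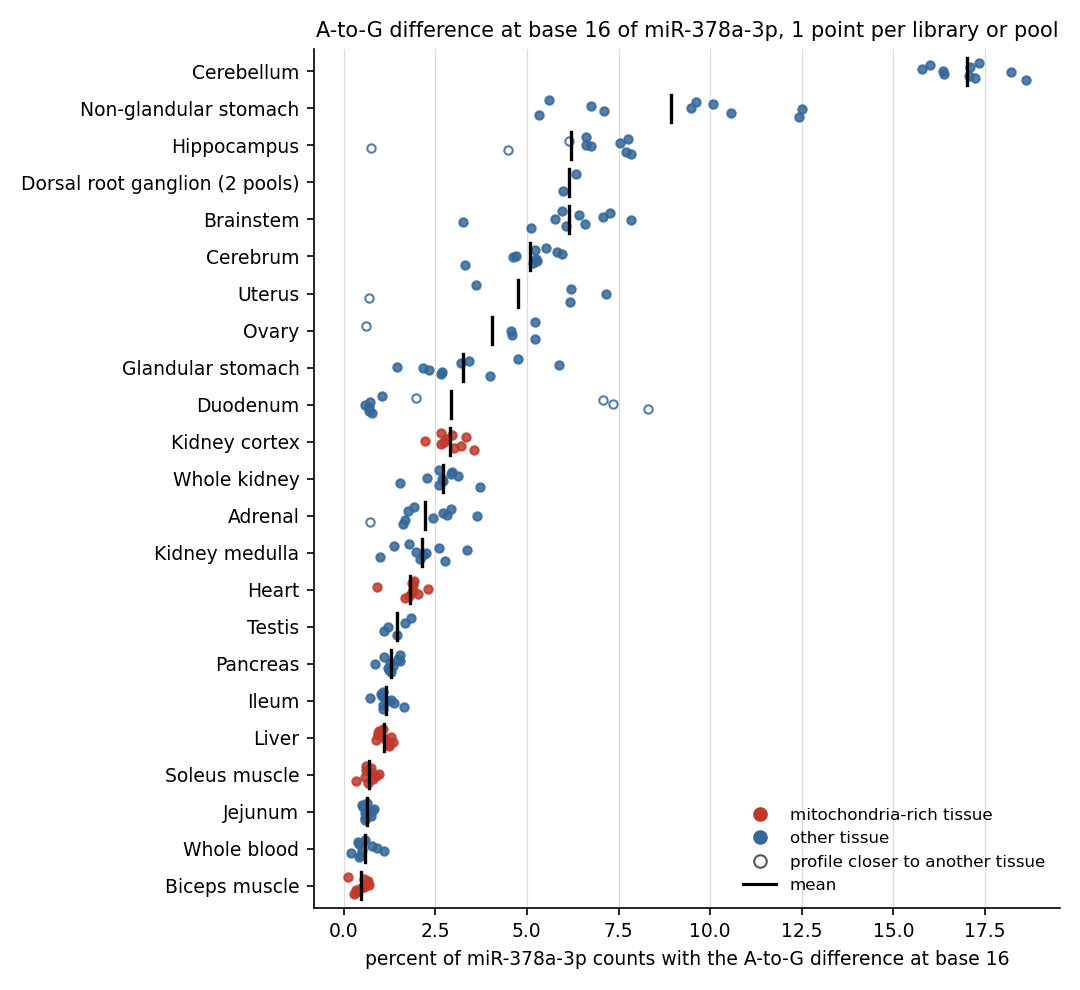
Share of miR-378a-3p counts with the A16G change in percent, with 1 point per library or pool, a black bar at the mean and open points for the 10 libraries closer to another tissue. The 10 cerebellum libraries lie between 15.8 and 18.6%, above all others, and the biceps libraries at or below 0.684%. The lane with added first bases is included.

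The libraries closer to another tissue also differed in this share. The 3 duodenum libraries with low miR-378a-3p, at 1980.1 to 2818.7 CPM, were in the same tissue as 6 libraries at 11024 to 13712 CPM, and the tissue share of A16G was 2.92 ± 3.25% with them and 0.757 ± 0.162% (n = 6) without the 4 libraries set aside. For the hippocampus the same step moved the share from 6.22 ± 2.18% to 7.26 ± 0.574%.

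Outside the family, the names whose tissue pattern was most like that of miR-378a-3p were miR-28-3p (Pearson's r = 0.734 over 23 tissue means of log2 CPM, among 1609 names), miR-28-5p (0.725), miR-22-3p (0.694) and miR-422a (0.693), followed by a composite of a miR-126a precursor with predicted miRNAs (0.674). These values are descriptions with no test. The name miR-422a held 105 counts, all of them with the seed of miR-378a-3p, and its most counted sequence, with 15 of them, is shown because it differs from the 22-base form of miR-378a-3p by G10A and A12G only.
miR-422a: aCTGGACTtagggtcagaaggc
Composites that hold miR-1, a miRNA of striated muscle, were the most like the composite miR-378a-3p;miR-378b (0.717), miR-378b (0.922), and the predicted composites with miR-378c (0.834) and with miR-378d (0.94), whereas miR-422a was the most like miR-378a-5p (0.697) and miR-378d (0.746). No name outside the family was as close to miR-378a-3p as its 5p arm.

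Other miRNAs tied to lipid, glucose or mitochondrial metabolism did not share one direction. Of 32 listed, 30 were tested, and 16 were higher in the mitochondria-rich tissues, 8 lower and 6 neither, with a median log2 difference of 0.34 against 0.00419 over all 1641 names, of which 25.5% were higher and 11.8% lower. The list was put together with earlier results of these data known. The largest increases were those of miR-1-3p (5.70), miR-208b-3p (5.33), miR-133a-3p (4.96) and miR-206-3p (3.61), the miRNAs of striated muscle. The largest decreases were those of miR-204-5p (-1.74), miR-370-3p (-1.42), miR-338-3p (-0.91) and miR-34a-5p (-0.67).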

How the data were processed

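Small RNA libraries of 23 rat tissues were sequenced in 458 runs. The authors trimmed adaptors with cutadapt 1.4.1, dropped short reads, aligned the rest to miRNA precursors and deposited raw counts per miRNA name and per isomiR sequence for each run, with no normalization. Here 14 runs that repeated a lane of the same library were set aside, the other 444 were summed to 215 libraries, and the 10 DRG libraries to 2 pools (207 values). CPM is the count divided by the library total, between 376401 and 17725805, which sets the counting error. Labels gave tissue, sex and rat. Each rat gave 19 tissues and its reproductive organs, so the rat number pairs these tissues. The DRG pools carry no rat number.

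Tissues were compared in R 4.3.3 by the quasi-likelihood F test of edgeR 4.0.16, after filterByExpr and with library sizes from the upper quartile (threshold 0.05 after Benjamini-Hochberg adjustment over all names tested in a contrast). DESeq2 1.42.0, other scalings, no filter, single flow cells, left-out rats and tissues, and the rat as a block (run without DRG) were alternatives. Differences within rats used exact two-sided sign-flip permutation tests, with a pseudocount of 1 CPM or 1 count. IsomiR shares needed at least 100 counts. Tables were made with Python 3.11.15, pandas 2.3.3 and numpy 2.4.6. The fit and the permutation test were tested on simulated data. The family, the tissue sets and all lists were chosen with earlier results of these data known. By rule every member is accounted for, the names most like 8 members were sought (5 for miR-378a-3p and 3 for each other), and of the metabolic list the 4 largest changes in each direction are named. Tissue forms, the lane and A16G were chosen after the values were seen.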

Additional observations from a re-analysis of the deposited data

Results flagged for a closer look

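In 110 sets of 4 to 10 libraries of 1 tissue, the highest or lowest library was compared with its neighbour by Dixon's rule, which chance passes in about 1 of 20 sets. A library stood apart in 34. Of these, 13 were libraries whose profile was closer to another tissue, 16 had a run in the lane with added first bases, and none of the 16 stood apart without that lane.

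For miR-378a-3p the libraries were adrenal rat 8 (9934.4 CPM), hippocampus rat 6 (11868), ovary rat 11 (11126), uterus rat 8 (12248) and whole blood rat 6 (1005.5). For miR-378a-5p the same adrenal, hippocampus, ovary and uterus libraries held 91.013, 93.075, 96.26 and 80.483 CPM, and brainstem rat 11 (30.791), kidney cortex rat 4 (208.13) and soleus rat 6 (652.01) also stood apart. For the composite miR-378a-3p;miR-378b they were adrenal rat 8 (129.96 CPM), hippocampus rat 6 (155.51), ovary rat 11 (128.71), whole blood rat 6 (22.207) and, with a run in the lane, kidney medulla rat 7 (68.018), biceps rat 10 (718.21) and soleus rat 8 (568.37).

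The share of the RefSeq form of miR-378a-3p was low in 11 libraries with a run in the lane, at 6.674% in brainstem rat 6, 7.581% in cerebrum rat 9, 9.05% in duodenum rat 8, 20.32% in heart rat 3, 8.4% in ileum rat 3, 6.861% in kidney rat 7, 7.504% in kidney medulla rat 7, 19.96% in biceps rat 10, 27.17% in soleus rat 8, 12.72% in pancreas rat 5 and 11.38% in testis rat 5. The A16G share stood apart in cerebrum rat 9 (3.321%) and heart rat 3 (0.9136%), which had a run in the lane and held 5.802% and 1.817% without it. It also stood apart in hippocampus rat 6 (0.7404%) and ovary rat 11 (0.6229%), 2 of the libraries closer to another tissue.

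Predicted miRNAs that carry the name of the family in their seed label, and no family name, were in no comparison. These 33 names held 61739 counts.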

How the results depend on the processing

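Of 1573 values under alternatives for 69 results, 1482 kept their direction and their side of the threshold or moved little, 22 lost the call, 30 gained it, 14 moved and 25 reversed. miR-378a-3p was higher in the mitochondria-rich tissues in every alternative run, by 2.64 to 3.36 on the log2 scale. The cause of the changes below was not tested.

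All names called higher and lower were 221 and 531 under DESeq2, 206 and 98 with flow cell D1GBMACXX only, and 259 and 122 with C2BUMACXX libraries. Tissues with lower miR-378a-5p were 5 and 4 with these flow cells. Family calls between the sexes were 7 under DESeq2, 16 with no filter, and 1 with library totals, C2BUMACXX libraries or without the 10 libraries, where the call was another one, in whole blood (predicted composite with miR-378c). In hippocampus, the difference of miR-378a-3p, the composite and miR-378a-5p was -0.79, -1.13 and -0.99 with library totals and 0.12, -0.050 and 0.10 without the 10 libraries. With C2BUMACXX libraries it was -1.93 and -2.05 for miR-378a-3p and the composite. Leaving out 1 rat gave 0 to 5 calls (0 without rat 6) and -2.94 to -1.14, -3.58 to -1.64 and -2.97 to -1.43.

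Soleus minus biceps in miR-378a-3p became a call under DESeq2 (-0.92), TMM (-0.88), library totals (-0.70) and without the 10 libraries (-0.75). Heart minus soleus in the composite became one under DESeq2 (-1.53), TMM (-1.38), library totals (-1.32), D1GBMACXX (-0.99), without DRG (-0.996, and -0.99 with the rat as a replicate block on top), without the 10 libraries (-0.85), without the lane (-0.88) and without rat 9 (-0.92 to -0.76 over rats). Beside the fit without DRG and with no block, the replicate block changed no call in this pair, and it changed no call in the other results it was run on. Heart minus soleus in miR-378a-3p was no longer called with C2BUMACXX (-1.02) and D2C4RACXX libraries (-0.95). Heart minus biceps lost it with no filter (composite -1.13, miR-378a-5p -1.08) and with C2BUMACXX libraries (-1.03 and -1.14). Kidney cortex minus medulla reversed in miR-378a-3p with D1GBMACXX (-0.18), D2C4RACXX (-0.052) and without rat 11 (-0.037 to 0.12 over rats), in miR-378a-5p with D2C4RACXX (-0.081) and in the composite with library totals (0.049).

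With D1GBMACXX only, 3 log2 ratios to miR-378a-3p changed sign, to -0.15 for the predicted composite with miR-378c (not called), -0.96 for that with miR-378d and -0.44 for miR-378d (both called). Those of miR-378b (-1.73) and miR-378c (-1.67) and the arm ratio (0.18) became calls. With a pseudocount of 0.5 the predicted composites with miR-378c (0.34) and miR-378d (0.35) became calls and miR-378b changed sign (0.047, not called). Without the lane the composite with miR-378c (0.23) and miR-378b (-0.42) became calls and miR-378d changed sign (-0.026, not called). Without single rats they ran from 0.21 to 0.33 (composite with miR-378c, called without rat 2), -0.0019 to 0.083 (miR-378d) and -0.67 to -0.42 (miR-378c, called without rat 3).

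Share differences in points were, without the lane, 0.65 for other 5′ ends of miR-378a-3p, -0.51 for the composite and 0.80 for miR-378a-5p, and 0.91 and 0.23 for the most counted sequence of the composite and miR-378a-5p. All deposited runs gave -0.59 and 0.89 for the composite. A minimum of 20 counts gave 0.0042 for other 3′ ends of the composite, and -0.0033 and 0.65 for other 5′ ends and the most counted sequence of miR-378a-5p. A minimum of 500 gave 0.31 for other 3′ ends of the composite. Without single rats the ranges were -0.27 to 1.15 (miR-378a-3p, 5′), 0.57 to 1.04, -0.69 to -0.46 and -0.32 to 0.13 (composite, most counted, 5′ and 3′) and -2.06 to 0.40 (miR-378a-5p, most counted).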

Other observations

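The predicted miRNAs with the family in their seed label were led by 1 name with the seed label of miR-378g, with 40042 of 61739 counts. The summed level of all of them was highest in testis, with 340.2 ± 305.6 CPM (SD, n = 5), and next in liver, with 165.4 ± 134.3 CPM (n = 10), and lowest in the glandular stomach, with 24.2 CPM. The mean over the mitochondria-rich tissues was 78.7 CPM and that over the rest 77.6 CPM. The most counted name with the seed label of miR-378a-3p (3061 counts) instead had 6.80 CPM in the mitochondria-rich tissues and 3.05 CPM in the rest, and was highest in liver. The sum varied widely between rats in testis and liver, and the testis libraries were the shallowest of the study. No test was run on these names.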
